A study of Mus musculus with 12 samples.

Results

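The mRNA levels of 8 genes of the caspase cascade and the apoptosome were followed in mRNA-seq libraries of H9c2 cells, a rat heart-derived myoblast line that the paper calls cardiomyoblasts. The genes were taken by name from the deposited table of 54345 genes and all 8 had reads in every library and were among the 25044 genes tested. They comprise Cycs, Diablo, Apaf1, Casp9, Casp2, Casp8, Casp12 and Casp6.

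Each of 4 groups held 3 libraries of WT cells, harvested after 6 h. The untreated cells (Unt) received no agent, and the DOX cells received doxorubicin, an anthracycline with known cardiac toxicity. The D_DXZ cells received doxorubicin together with dexrazoxane, the drug used clinically against anthracycline cardiotoxicity, and the D_MgHCF cells received doxorubicin together with magnesium hexacyanoferrate nanocatalysts. The doses in the sequenced cells are not given in the sources used here, there was no group with dexrazoxane or MgHCF alone, and all cells were of 1 line. The labels give the organism as mouse and the files use mouse gene models, so every value is a level assigned to a mouse gene. How reads of rat cells were assigned to mouse genes could not be checked from FPKM, which bears on near-identical copies and on genes with few reads.

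In the intrinsic pathway of apoptosis, mitochondria release cytochrome c, which binds APAF1 and drives it to assemble into the apoptosome, the platform that recruits and activates the initiator caspase 9. Caspase 9 then cleaves executioner caspases, and SMAC (the product of Diablo), released by the same mitochondria, relieves their block by inhibitor of apoptosis proteins. Caspase 8 starts the extrinsic pathway at death receptors, caspase 2 responds to DNA damage in the PIDDosome, caspase 12 is tied to stress of the endoplasmic reticulum and inflammation in rodents, and caspase 6 cleaves lamins. Caspases are made as inactive precursors, so an mRNA level says nothing of protein, cleavage or activity.

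The sequences upstream of Cycs, Casp12 and Apaf1 are shown because these genes had the largest differences of the 8 between D_MgHCF and DOX. They are the mouse sequences of RefSeq (GRCm38.p6), 5′ to 3′ on the strand of the gene, up to the RefSeq start or, where that start lies inside the GENCODE gene, up to the GENCODE boundary. Capitals mark matches to the motifs searched. The 250 bases of Cycs lie at chr6:50566570-50566819 on the minus strand, the 204 bases of Casp12 at chr9:5345226-5345429 on the plus strand and the 223 bases of Apaf1 at chr10:91082771-91082993 on the minus strand.
Cycs: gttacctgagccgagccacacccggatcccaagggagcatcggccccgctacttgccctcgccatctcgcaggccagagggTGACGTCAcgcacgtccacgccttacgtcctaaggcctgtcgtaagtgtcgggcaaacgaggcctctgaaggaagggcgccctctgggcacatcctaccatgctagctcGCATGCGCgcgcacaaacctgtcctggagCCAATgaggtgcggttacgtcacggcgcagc
Casp12: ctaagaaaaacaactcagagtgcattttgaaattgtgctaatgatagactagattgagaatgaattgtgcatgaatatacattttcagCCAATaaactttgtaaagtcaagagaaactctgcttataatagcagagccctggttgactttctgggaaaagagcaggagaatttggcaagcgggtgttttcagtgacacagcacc
Apaf1: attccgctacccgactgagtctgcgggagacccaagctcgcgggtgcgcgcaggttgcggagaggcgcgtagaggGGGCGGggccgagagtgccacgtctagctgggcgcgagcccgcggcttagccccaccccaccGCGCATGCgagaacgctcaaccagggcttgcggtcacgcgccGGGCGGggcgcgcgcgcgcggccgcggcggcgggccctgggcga

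These 3 upstream regions differ in base composition. The printed sequence of Cycs held 23 CpG and that of Apaf1 held 37, while that of Casp12 held 1, against a median of 6 over the 250-base windows of 27025 mouse genes. On either strand, Cycs carried the cAMP response element letters TGACGTCA, present in 1.62% of the windows, the letters GCATGCGC of a nuclear respiratory factor 1 site, present in 2.32%, and the CCAAT box, present in 34.5%. Apaf1 carried GCATGCGC read on the other strand and the GC box GGGCGG (32.9% of windows) at 2 places, and Casp12 carried 1 CCAAT in the sequence shown. No match overlapped another. Over the full windows of the 8 genes, CCAAT was present in 5, GGGCGG in 5, GCATGCGC in 2 and TGACGTCA in 1. The window of Casp8, at chr1:58802252-58802501, lies wholly inside the GENCODE gene, and its CCAAT is counted among the 5. The TATA box TATAAA (13.0% of windows), the E2F site TTTCGCGC (0.255%) and the endoplasmic reticulum stress element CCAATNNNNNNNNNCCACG (0.122%) were present in none of the 8. Letters in a window are a description of the mouse sequence and not a measurement of binding.

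Values are FPKM, fragments scaled by gene length and library. Whole reads could be recovered from them, and the reads on genes were 16626514 to 19365119 per library. The deposited FPKM contain a median-ratio factor, so the FPKM of a library summed to between 216899 and 230292 for Unt, between 498756 and 627769 for DOX, between 447052 and 549680 for D_DXZ, and between 220276 and 290996 for D_MgHCF. Reads on mitochondrial genes were 1.19 to 1.41% for Unt, 2.73 to 2.89% for DOX, 2.73 to 3.27% for D_DXZ and 1.76 to 3.16% for D_MgHCF. The genes with reads numbered 20160 to 20660 for Unt, 18530 to 20381 for DOX, 19413 to 19662 for D_DXZ and 23368 to 25456 for D_MgHCF. The part of either in the results was not tested. Of the mesenchymal genes, Vim was at 220.0 to 268 FPKM for Unt, 870 to 1136 FPKM for DOX, 693 to 879 FPKM for D_DXZ and 93.4 to 157 FPKM for D_MgHCF. Acta2 was at 262 to 323 FPKM for Unt, 1482 to 2032 FPKM for DOX, 1225 to 1709 FPKM for D_DXZ and 208 to 436 FPKM for D_MgHCF. The muscle regulators Myod1, Myf5, Myog and Pax7, which define skeletal myoblasts, were at 0 in the 3 Unt libraries and below 0.2 FPKM elsewhere, and of the cardiac regulators Gata4 was at 9.66 to 10.8 FPKM for Unt, 2.17 to 4.93 FPKM for DOX, 2.36 to 3.66 FPKM for D_DXZ and 14.2 to 25.5 FPKM for D_MgHCF, and Tbx5 was at 0 in every library. Des, of the first list, was at 1.36 to 1.57 FPKM for Unt, 0.491 to 0.668 FPKM for DOX, 0.339 to 0.759 FPKM for D_DXZ and 0.534 to 1.24 FPKM for D_MgHCF. Tagln was at most 0.298 FPKM in any library. The cardiac genes Nkx2-5, Tnnt2, Myh6, Myh7, Actc1 and Ryr2 were at most 0.970 FPKM in any library. The label of myoblast is thus that of the cell line, and the defining muscle regulators do not bear it out here. Vim and Acta2 are mesenchymal genes and are not particular to myoblasts. Of the other lists, the sums over 4 endothelial and 4 epithelial markers stayed below 1.1 and 1.7 FPKM, that of the measured leukocyte markers was 0.888 to 4.79 FPKM with Cd68 as the main contributor, and the fibroblast sum, mostly Col1a1 and Col1a2, was 45.1 to 51.1 FPKM for Unt, 97.4 to 122 FPKM for DOX, 76.7 to 103 FPKM for D_DXZ and 22.0 to 39.6 FPKM for D_MgHCF. The part of these markers in the results was not tested. D_MgHCF replicate 3 stood apart, with correlations of 0.942 and 0.964 to its replicates where the other 10 replicate pairs had 0.984 to 0.995 (Pearson, log2 values across genes). Values without it are given where they change a call. The labels do not say whether replicates are separate cultures, so p-values measure only the spread between these libraries, which may be technical.

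Doxorubicin changed 5 of the 8 mRNAs in opposite directions. Cycs, Casp12 and Casp6 were higher in DOX than in Unt (Casp6 turned to -0.18 on the log2 scale with TPM scaling), Apaf1 and Casp2 were lower, and Casp8, Casp9 and Diablo did not pass the test. Over all genes tested, 18.6% were called higher and 19.9% lower in this comparison, so 3 and 2 of 8 members stand beside a background of the same order. The test is limma on log2(FPKM + 1), and a call is a Benjamini-Hochberg adjusted p under 0.05 over all 25044 genes. All fold changes below are on that log2 scale, which understates the change of low genes, and each has its standard error.

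With MgHCF beside doxorubicin, 3 of the 8 mRNAs were higher and 3 lower than with doxorubicin alone, against 31.4% and 20.1% of all genes tested. Apaf1, Casp9 and Casp2 were higher, by 4.50-fold in mean FPKM for Apaf1. Casp12, Cycs and Casp6 were lower, by 9.26-fold for Casp12 (Casp6 turned to 0.42 on the log2 scale with TPM scaling). With dexrazoxane beside doxorubicin, none of the 8 passed the test against DOX. No gene of all 25044 did either, so the background is 0.0% higher and 0.0% lower. The comparisons DOX against Unt and D_MgHCF against DOX share the DOX libraries, so opposite signs in them are not independent of each other.

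**Figure D1:**
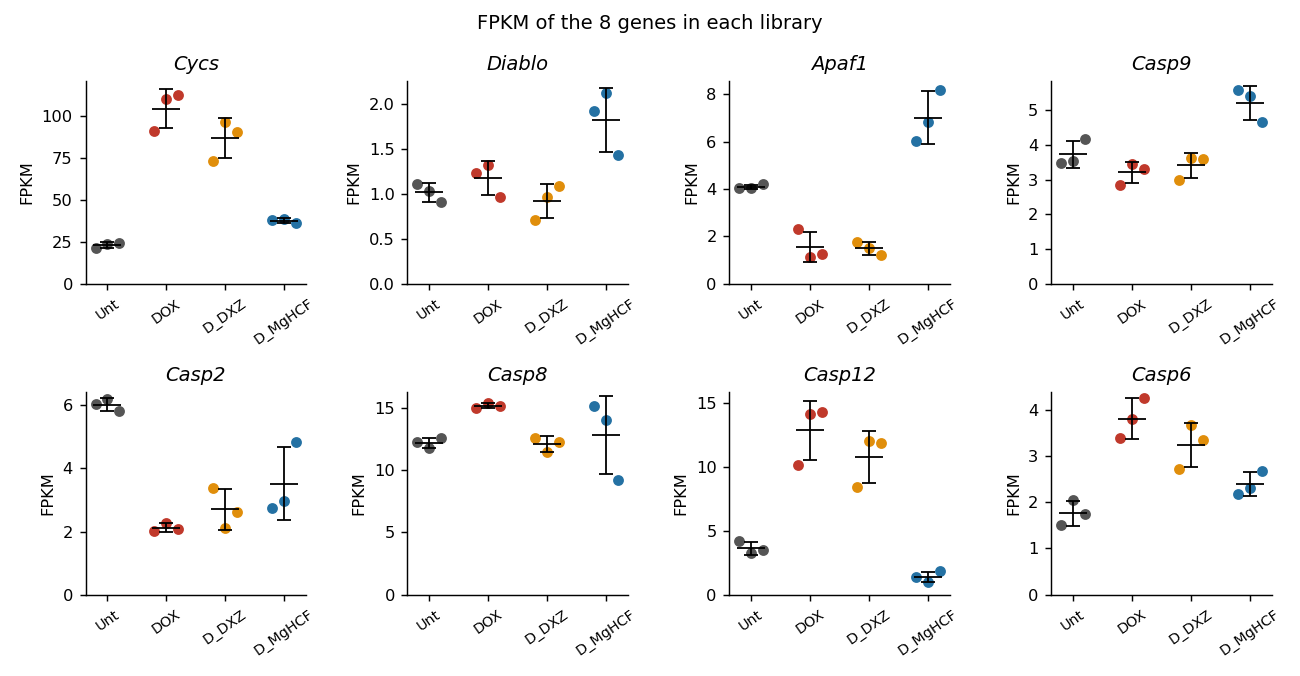
FPKM (vertical axes, from 0) of each gene in each of the 12 libraries, 1 point per library by group, with the mean and SD of 3 libraries in black. Cycs and Casp12 are highest in DOX and D_DXZ, Apaf1 is highest in D_MgHCF, and D_MgHCF replicate 3, the right point of its group, lies away from its replicates for Casp2 and Casp8.

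Cycs encodes somatic cytochrome c, the electron carrier whose release triggers apoptosome assembly (ENSMUSG00000063694, GRCm38 chr6:50562563-50566538, minus strand). Its FPKM were 21.2, 23.6 and 24.5 in Unt, 90.7, 109.7 and 112 in DOX, 73.2, 96.2 and 90.1 in D_DXZ and 38.0, 38.8 and 36.0 in D_MgHCF. The DOX and D_DXZ libraries overlapped each other and lay above all others, and the D_MgHCF libraries lay between them and Unt without overlap. The mean was 4.51-fold higher in DOX than in Unt (log2 fold change 2.12, SE 0.12, limma adjusted p = 1.06e-05). It was 2.77-fold lower in D_MgHCF than in DOX (log2 fold change -1.44, SE 0.12, limma adjusted p = 8.80e-06) and still 1.63-fold higher than in Unt (log2 fold change 0.68, SE 0.12, limma adjusted p = 0.00152). With TPM scaling the first 2 differences were 0.79 and -0.24, both still called (limma adjusted p = 3.60e-05 and 0.0360). Of the members, Cycs alone had an unadjusted p under 0.05 for D_DXZ against DOX (log2 fold change -0.27, limma unadjusted p = 0.0474, adjusted p = 0.519).

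Cycs has near-identical copies in the mouse genome between which its reads can be split, and how reads of rat cells were shared among them could not be checked. The copy Gm10053 on chromosome 19 is 99.9% identical over 946 bases and was listed at 7.14 FPKM in Unt, 32.1 FPKM in DOX, 26.8 FPKM in D_DXZ and 11.0 FPKM in D_MgHCF (means of 3 libraries). It stood at 31.0% ± 1.56 (SD, n = 3) of the Cycs value in Unt, 30.9% ± 1.07 in DOX, 30.7% ± 3.50 in D_DXZ and 29.2% ± 1.60 in D_MgHCF. Over libraries this share was 30.2 to 32.1% in DOX and 27.3 to 30.1% in D_MgHCF, without overlap, while all other pairs of groups overlapped. The processed pseudogenes, Gm10108, Gm13772 and Gm11625, had group means of at most 5.36 FPKM. The sum of Cycs and its 4 copies was 31.8 ± 1.99 FPKM in Unt, 142 ± 16.1 in DOX, 118 ± 19.9 in D_DXZ and 51.1 ± 2.75 in D_MgHCF (SD, n = 3), a 4.48-fold difference of DOX to Unt against 4.51-fold for Cycs alone.

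Apaf1 encodes the scaffold of the apoptosome (ENSMUSG00000019979, chr10:90989311-91082770, minus strand). Its FPKM were 4.05, 4.04 and 4.20 in Unt, 2.30, 1.13 and 1.24 in DOX, 1.76, 1.51 and 1.21 in D_DXZ and 6.01, 6.84 and 8.19 in D_MgHCF. All DOX and D_DXZ libraries lay below all Unt libraries, all D_MgHCF libraries lay above them, and DOX replicate 1 was the highest of its group. The mean was 2.63-fold lower in DOX than in Unt (log2 fold change -1.02, SE 0.18, limma adjusted p = 0.000881). It was 4.50-fold higher in D_MgHCF than in DOX (log2 fold change 1.67, SE 0.18, limma adjusted p = 3.55e-05) and 1.71-fold higher than in Unt (log2 fold change 0.64, SE 0.18, limma adjusted p = 0.0167). This last call was lost without Unt replicate 1 or Unt replicate 2 (limma adjusted p = 0.0507 and 0.0520) and with TPM scaling (0.56, limma adjusted p = 0.0784). Between D_DXZ and DOX the difference was -0.01 with a 95% interval of -0.41 to 0.38 on the log2 scale.

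Cycs and Apaf1 therefore differed in direction in DOX against Unt, and their ratio within a library does not depend on how libraries are scaled when no pseudocount is added. This pair, like the other tests, was chosen with earlier results of these data known. The Cycs to Apaf1 FPKM ratio was 5.23, 5.84 and 5.84 in Unt, 39.5, 97.0 and 90.0 in DOX, 41.7, 63.6 and 74.4 in D_DXZ and 6.32, 5.66 and 4.39 in D_MgHCF. The D_MgHCF libraries overlapped Unt and lay below every DOX and D_DXZ library. On the log2 scale with a pseudocount of 1 the ratio differed by 3.15 for DOX against Unt and by -3.11 for D_MgHCF against DOX, each with an exact two-sided permutation p of 0.1, which is the smallest that 3 against 3 libraries allow, so neither can pass 0.05 (n = 3 per group). For D_DXZ against DOX it was -0.25 (exact permutation p = 0.5, n = 3 per group).

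**Figure D2:**
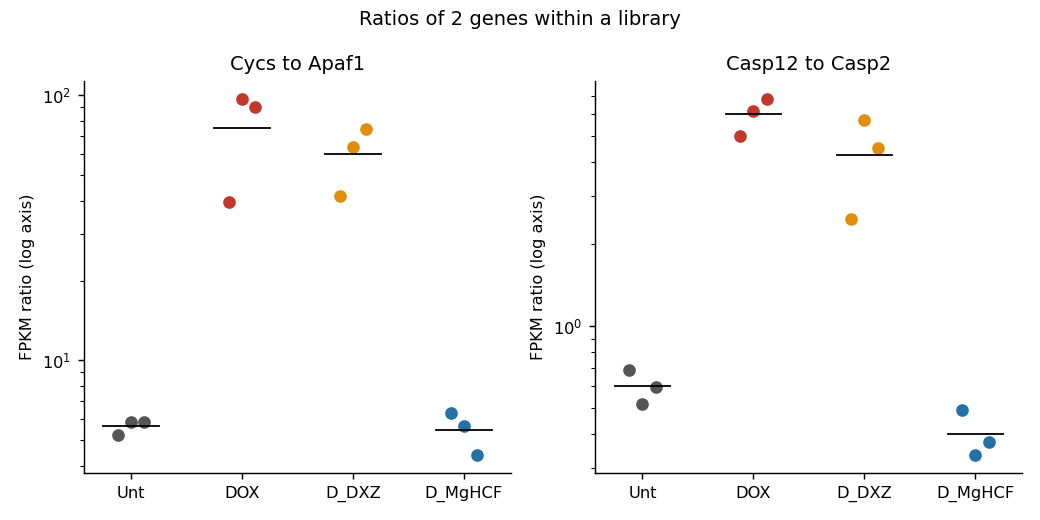
Ratio of the FPKM of 2 genes within each library (log axes), 1 point per library and a line at the mean of 3, for Cycs to Apaf1 and for Casp12 to Casp2. For both ratios the DOX and D_DXZ libraries lie above all Unt and D_MgHCF libraries.

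Casp9 encodes the initiator caspase that the apoptosome activates (ENSMUSG00000028914, chr4:141793612-141815976, plus strand). Its FPKM were 3.49, 3.53 and 4.18 in Unt, 2.85, 3.45 and 3.31 in DOX, 2.99, 3.63 and 3.60 in D_DXZ and 5.57, 5.40 and 4.66 in D_MgHCF. The 3 D_MgHCF libraries were the highest of all 12. Casp9 was 1.63-fold higher in D_MgHCF than in DOX (log2 fold change 0.56, SE 0.12, limma adjusted p = 0.00228), although this was 0.25 and not called after quantile normalization. It was 1.39-fold higher than in Unt (log2 fold change 0.39, SE 0.12, limma adjusted p = 0.0224), a call that was lost without Unt replicate 1 or 2 or without D_MgHCF replicate 1 or 2 (0.35 to 0.37) and kept without D_MgHCF replicate 3 (0.46). For DOX against Unt the log2 fold change was -0.17 (95% interval -0.43 to 0.09) and not called, but it was called lower with TPM scaling (-1.25, limma adjusted p = 8.27e-06) and with FPKM over summed reads (-0.90, limma adjusted p = 4.06e-05), and was 0.28 and not called with quantile normalization. At its 3′ end Casp9 overlaps Ctrc and Cela2a on the opposite strand, which were at most 0.03 FPKM in any library.

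Diablo encodes SMAC, which binds inhibitor of apoptosis proteins (ENSMUSG00000029433, chr5:123509765-123524176, minus strand). By group mean it was the lowest of the 8 in Unt, DOX and D_DXZ, but in D_MgHCF it stood at 1.83 FPKM, above Casp12 at 1.39. Diablo had 1.12, 1.04 and 0.909 FPKM in Unt, 1.24, 1.33 and 0.967 in DOX, 0.713, 0.965 and 1.09 in D_DXZ and 1.92, 2.13 and 1.43 in D_MgHCF, on 69 to 334 reads per library. All 3 D_MgHCF libraries were above the other 9. Against Unt the mean was 1.79-fold higher in D_MgHCF (log2 fold change 0.48, SE 0.14, limma adjusted p = 0.0240) and against D_DXZ 1.98-fold higher (log2 fold change 0.55, limma adjusted p = 0.00955, 0.24 and not called after quantile normalization). The call against Unt was lost without any 1 of the Unt libraries or without D_MgHCF replicate 1 or 2 (limma adjusted p of 0.0523 to 0.0827). Against DOX the log2 fold change was 0.37 with an adjusted p of 0.0517 in limma, and 0.48 with an adjusted p of 0.0110 without D_MgHCF replicate 3. That difference was also called with TPM scaling (1.10), FPKM over summed reads (0.93), voom on the recovered reads (0.63), a filter of FPKM of at least 1 in 3 libraries and no filter (0.37 in both), and was -0.03 and not called with quantile normalization. The value of Diablo is uncertain because genes share its sequence. Gm49027, listed at 0.770 FPKM in D_MgHCF and 0.0829 in Unt, is 99.5% identical over 1204 bases, B3gnt4 was at 0 throughout, and Gm15751 on the other strand was at 0.731 to 2.81 FPKM.

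Casp12 encodes a caspase of the endoplasmic reticulum (ENSMUSG00000025887, chr9:5345430-5373032, plus strand). Its FPKM were 4.17, 3.22 and 3.46 in Unt, 10.2, 14.1 and 14.2 in DOX, 8.42, 12.0 and 11.9 in D_DXZ and 1.35, 0.992 and 1.81 in D_MgHCF. Every D_MgHCF library lay below every Unt library, and every Unt library below every DOX and D_DXZ library. The mean was 3.55-fold higher in DOX than in Unt (log2 fold change 1.57, SE 0.18, limma adjusted p = 6.92e-05), 9.26-fold lower in D_MgHCF than in DOX (log2 fold change -2.53, SE 0.18, limma adjusted p = 5.30e-06) and 2.61-fold lower in D_MgHCF than in Unt (log2 fold change -0.96, SE 0.18, limma adjusted p = 0.00260). Of the 8 genes it had the largest difference between D_MgHCF and DOX in absolute size, and the reads behind it were 592 to 694 in DOX and 97 to 171 in D_MgHCF. When FPKM were rescaled to sum to the same total (TPM), the rise in DOX against Unt was 0.40 and not called (limma adjusted p = 0.107), while the fall in D_MgHCF against DOX was called under all 5 scalings.

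Casp2 encodes the caspase of the PIDDosome (ENSMUSG00000029863, chr6:42264985-42282508, plus strand). Its FPKM were 6.04, 6.22 and 5.82 in Unt, 2.03, 2.28 and 2.08 in DOX, 3.39, 2.10 and 2.62 in D_DXZ and 2.75, 2.96 and 4.86 in D_MgHCF. All treated libraries lay below Unt. The mean was 2.83-fold lower in DOX than in Unt (log2 fold change -1.17, SE 0.18, limma adjusted p = 0.000396) and 1.71-fold lower in D_MgHCF than in Unt (log2 fold change -0.67, SE 0.18, limma adjusted p = 0.0150). The latter call was lost without Unt replicate 2, D_MgHCF replicate 1 or D_MgHCF replicate 2 (limma adjusted p of 0.0503 to 0.0555). The rise in D_MgHCF against DOX (log2 fold change 0.50, SE 0.18, limma adjusted p = 0.0384) was 0.30 with an adjusted p of 0.0870 without D_MgHCF replicate 3. It was also lost without any 1 Unt or DOX library or D_DXZ replicate 3 (log2 fold changes of 0.48 to 0.54), and with quantile normalization (0.08), voom (0.68), no filter, only the 2 groups compared or the replicate block (0.50 in these 3), with limma adjusted p of 0.0568 to 0.800. With TPM scaling it was 1.39 and called. Within libraries the Casp12 to Casp2 FPKM ratio, a pair chosen after the values were seen, was 0.601 ± 0.086 in Unt, 6.02 ± 0.93 in DOX, 4.24 ± 1.63 in D_DXZ and 0.401 ± 0.081 in D_MgHCF (SD, n = 3).

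Casp8 encodes the initiator caspase of death receptors (ENSMUSG00000026029, chr1:58795374-58847503, plus strand) and had the highest FPKM of the 5 caspases in 11 of the 12 libraries. Its FPKM were 12.3, 11.7 and 12.5 in Unt, 15.0, 15.4 and 15.1 in DOX, 12.6, 11.4 and 12.3 in D_DXZ and 15.1, 14.0 and 9.21 in D_MgHCF. D_MgHCF replicate 3 was the lowest of all 12 libraries, whereas its 2 replicates were among the higher ones. No comparison of Casp8 passed the test, with 0.29 for DOX against Unt (95% interval -0.03 to 0.62, limma adjusted p = 0.148) and -0.31 for D_DXZ against DOX (95% interval -0.63 to 0.01, limma adjusted p = 0.545) on the log2 scale. Without D_MgHCF replicate 3, Casp8 was called higher in DOX than in Unt (0.29, limma adjusted p = 0.00245), in D_MgHCF than in Unt (0.24, limma adjusted p = 0.0132) and in D_MgHCF than in D_DXZ (0.25, limma adjusted p = 0.00939). Without D_MgHCF replicate 1 it was called lower in D_MgHCF than in DOX (-0.38, limma adjusted p = 0.0446). With only the 2 groups compared, Casp8 was called higher in DOX than in Unt (0.29, limma adjusted p = 0.00159). The recovered reads ran the other way from FPKM, with 814 to 892 in Unt and 506 to 658 in DOX, and Casp8 was called lower in DOX than in Unt after TPM scaling (-0.98).

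Casp6 encodes a caspase that cleaves lamin A (ENSMUSG00000027997, chr3:129901425-129914103, plus strand). Its FPKM were 1.50, 2.04 and 1.74 in Unt, 3.39, 3.80 and 4.26 in DOX, 2.73, 3.68 and 3.34 in D_DXZ and 2.17, 2.31 and 2.69 in D_MgHCF. D_MgHCF libraries lay between Unt and the other treated groups without overlap. The mean was 2.17-fold higher in DOX than in Unt (log2 fold change 0.80, SE 0.14, limma adjusted p = 0.000716) and 1.59-fold lower in D_MgHCF than in DOX (log2 fold change -0.50, SE 0.14, limma adjusted p = 0.0104), but both directions turned with TPM scaling (-0.18, not called, and 0.42, called). Against D_DXZ the log2 fold change of D_MgHCF was -0.32 (limma adjusted p = 0.0734), called without D_DXZ replicate 1 (-0.41) or D_MgHCF replicate 3 (-0.38).

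**Figure D3:**
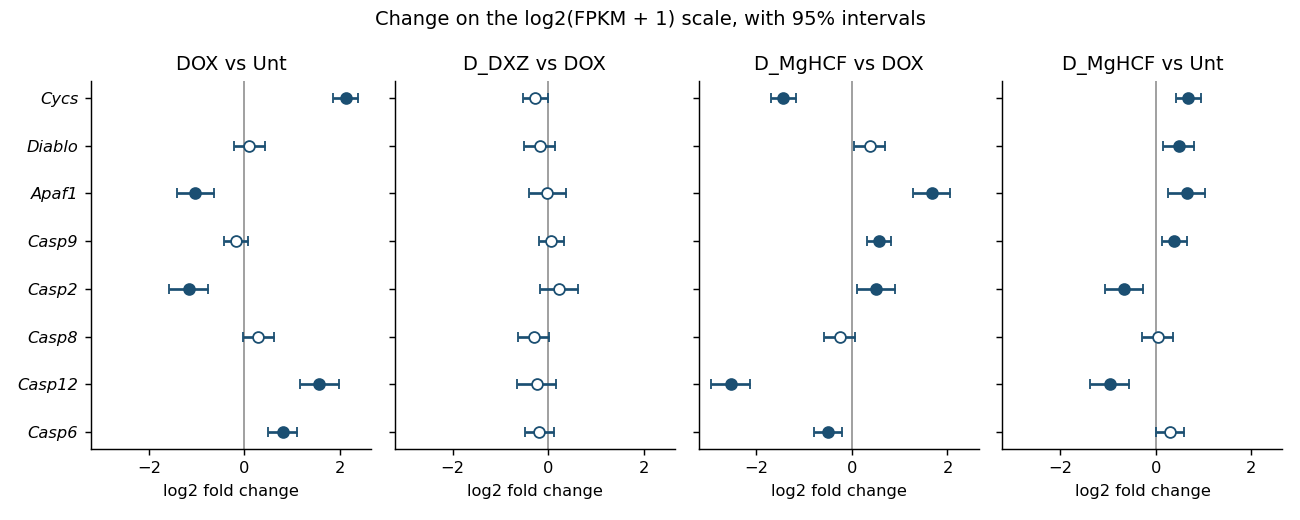
Log2 fold change of each gene on the log2(FPKM + 1) scale (horizontal axes) in 4 comparisons, with the 95% interval of limma. Filled points have an adjusted p under 0.05. All 8 points are open for D_DXZ against DOX, with values of -0.31 to 0.23.

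D_DXZ differed from Unt in the same 5 genes that DOX did, a shared reference for both comparisons. Cycs (log2 fold change 1.85, and 0.70 with TPM scaling), Casp12 (1.34, but 0.32 and not called with TPM scaling) and Casp6 (0.62, but -0.23 with TPM scaling) were higher than in Unt, and Apaf1 (-1.04) and Casp2 (-0.94) were lower, so 3 of 8 were higher and 2 lower against 15.9% and 18.0% of all genes tested. The direct difference of D_DXZ to DOX had intervals that still allow -0.65 for Casp12, -0.53 for Cycs and 0.63 for Casp2, so equal levels are not shown. At an unadjusted p under 0.05, limma gave 2388 of all genes for D_DXZ against DOX, and the smallest adjusted p over all genes was 0.0869. Voom on the recovered reads called 0 genes as well, while a pseudocount of 0.1 called 6 and quantile normalization 3, none of them a member.

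D_MgHCF differed from D_DXZ in 5 genes. Apaf1 was 4.70-fold higher (log2 fold change 1.68, limma adjusted p = 4.31e-05), Diablo 1.98-fold and Casp9 1.53-fold higher (0.24 and 0.25 on the log2 scale and not called with quantile normalization), Casp12 was 7.76-fold lower (log2 fold change -2.30, limma adjusted p = 1.15e-05) and Cycs 2.30-fold lower (log2 fold change -1.17, limma adjusted p = 3.42e-05, but -0.15 and not called with TPM scaling), against 29.4% of all genes higher and 19.0% lower. Relative to Unt, D_MgHCF had 4 members higher (Cycs, Apaf1, Diablo, Casp9) and 2 lower (Casp12, Casp2), against 24.3% and 15.7% of all genes. This count was between 2 (without Unt replicate 2) and 7 (without D_MgHCF replicate 3) when 1 library was left out, and 3 without Unt replicate 1, D_MgHCF replicate 1 or D_MgHCF replicate 2. The shares of all genes called in those fits are not given here, so this range cannot be set against a background.

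In the order of the group means, the neighbours that differed in limma were few. For Casp12 the order was D_MgHCF, Unt, D_DXZ and DOX from low to high, and D_DXZ and DOX did not differ. For Cycs it was Unt, D_MgHCF, D_DXZ and DOX, again with no difference at the top. For Apaf1 it was D_DXZ, DOX, Unt and D_MgHCF, with no difference at the bottom. For Casp2 (DOX, D_DXZ, D_MgHCF, Unt) only D_MgHCF and Unt differed among neighbours, and for Casp9 (DOX, D_DXZ, Unt, D_MgHCF) only Unt and D_MgHCF. No neighbours differed for Casp6, Casp8 and Diablo.

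The makeup of the caspase mRNAs differed between groups. As a share of the summed FPKM of the 5 caspases, Casp12 was 13.2% ± 1.71 in Unt, 34.4% ± 3.43 in DOX, 33.2% ± 4.61 in D_DXZ and 5.56% ± 2.03 in D_MgHCF (SD, n = 3). Casp2 was at 22.1% ± 1.13 in Unt, 5.75% ± 0.373 in DOX, 8.48% ± 2.50 in D_DXZ and 14.2% ± 5.85 in D_MgHCF. It went the other way from Casp12 in DOX against Unt and in D_MgHCF against DOX. Both shares were lower in D_MgHCF than in Unt. Shares of 1 sum are not independent of each other. Casp9 was at 20.6% ± 0.494 in D_MgHCF and 8.62% ± 0.200 in DOX. The share of Casp8 was 50.1% ± 9.08 in D_MgHCF, with the lowest value, 39.7%, in replicate 3. The sum itself was 27.3 ± 0.50 FPKM in Unt, 37.1 ± 3.23 in DOX, 32.2 ± 1.87 in D_DXZ and 25.3 ± 1.91 in D_MgHCF.

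**Figure D4:**
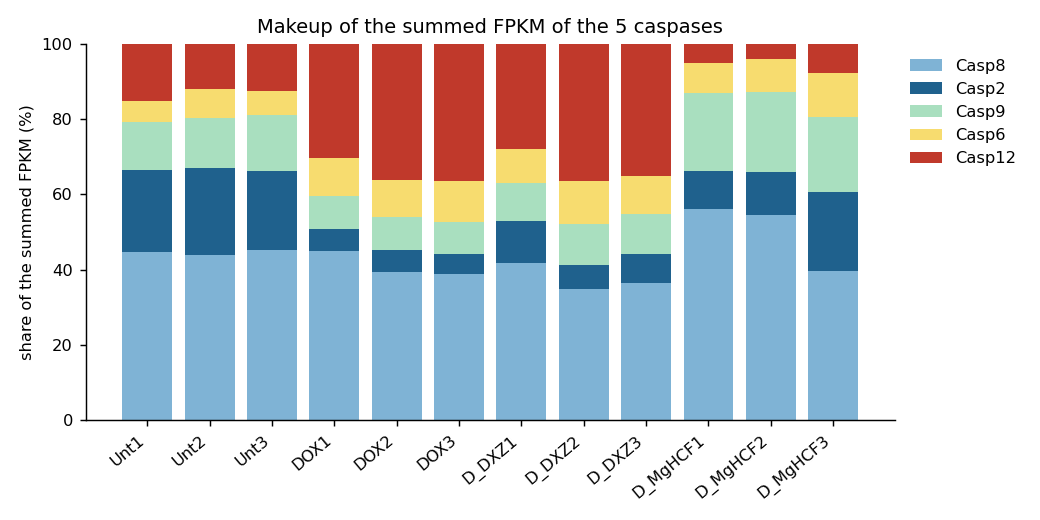
Share of each caspase (vertical axis, percent) in the summed FPKM of the 5 caspases in each of the 12 libraries, with each bar reaching 100. The Casp12 part, at the top, is 28.0 to 36.6% in the DOX and D_DXZ libraries, 12.0 to 15.2% in Unt and 3.87 to 7.81% in D_MgHCF.

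How the libraries are scaled sets the zero point of every fold change. In the deposited FPKM, the median log2 fold change of the 11515 genes with a mean FPKM of at least 1 was 0.05 for DOX against Unt, whereas it was -1.03 after TPM scaling and -0.69 with FPKM over summed reads. For D_MgHCF against DOX it was -0.09, 0.87 and 0.67. The split of calls over all genes moved with it, from 4649 higher and 4973 lower in DOX against Unt to 1099 and 10034 after TPM scaling, and from 7863 and 5027 in D_MgHCF against DOX to 13331 and 1679. Such libraries measure neither cell number nor RNA per cell, and the cause of these shifts was not tested.

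Relative to that median, 7 genes kept their side in DOX against Unt under all 5 scalings, and Casp9 changed sides. Casp12 was 1.43 to 1.75 above it, Cycs 1.12 to 2.10 above and Casp6 0.75 to 1.10 above, while Casp2 was between -1.56 and -0.76 and Apaf1 between -1.52 and -0.60. For D_MgHCF against DOX, Casp12 was between -3.12 and -2.45, Apaf1 between 1.46 and 2.34, Cycs between -1.35 and -0.30, Casp6 between -0.85 and -0.42, Casp9 between 0.31 and 0.82 and Casp2 between 0.14 and 0.79. Casp8 and Diablo lay above the median by at most 0.41 in DOX against Unt. Unshifted, Cycs, Apaf1 and Casp2 were called in DOX against Unt in 1 direction under all 5 scalings, and Cycs, Apaf1 and Casp12 in D_MgHCF against DOX.

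**Figure D5:**
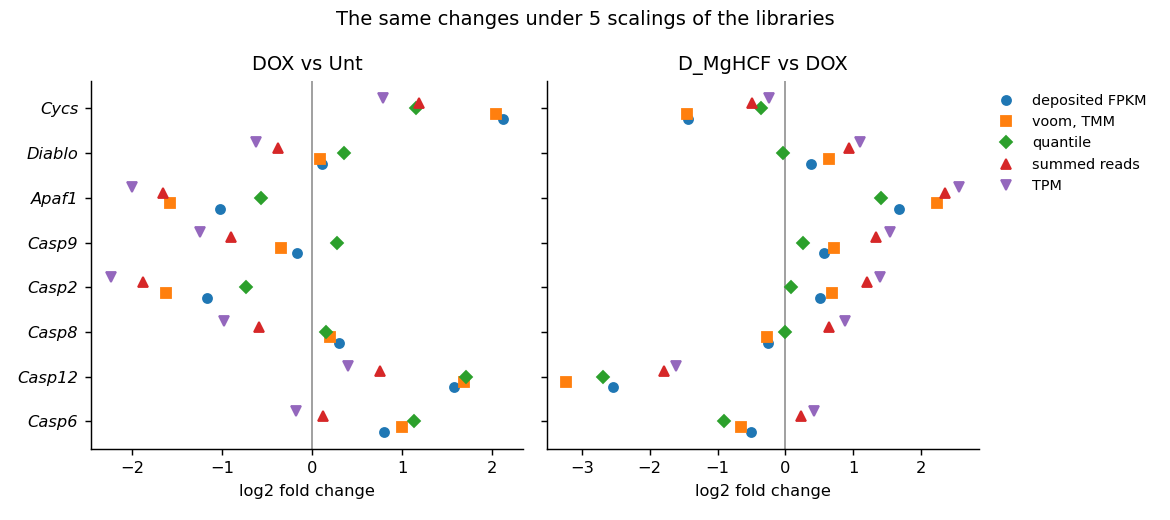
Log2 fold change of each gene (horizontal axes) in DOX against Unt and D_MgHCF against DOX under 5 scalings of the libraries, 1 marker per scaling. Cycs, Apaf1, Casp2 and Casp12 stay on 1 side of 0 in both panels, and the other 4 genes cross it in at least 1 panel.

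The other genes of the pathway were taken from a list of 46, of which 44 were tested. Of these 44, 19 were higher and 10 lower in DOX than in Unt (median log2 fold change 0.09, against 0.00 over all genes tested), and D_MgHCF against DOX had 12 rises and 23 falls (median -0.34 against 0.07). Among genes with a mean FPKM of at least 1, the medians were 0.05 for DOX against Unt and -0.09 for D_MgHCF against DOX. Over all genes tested, 18.6% were called higher and 19.9% lower in the first comparison and 31.4% and 20.1% in the second. The counts of the smaller groups below, apart from those with TPM scaling, stand beside the same shares. The split turned with TPM scaling, to 5 higher and 27 lower and to 28 higher and 7 lower. Calls over all 25044 genes turned as well, to 1099 higher and 10034 lower and to 13331 higher and 1679 lower. Counts with TPM scaling below stand beside those calls. None of the 44 was called for D_DXZ against DOX (4 lower and 2 higher at an unadjusted p), and D_MgHCF against Unt had 11 rises and 14 falls, against 24.3% and 15.7% of all genes.

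Of 10 genes around cytochrome c and the apoptosome, 8 rose with DOX against Unt (18.6% of all genes), and 9 fell with D_MgHCF against DOX (20.1%). With TPM scaling these were 2 higher and 4 lower, and 4 and 4. Ptma, whose product prothymosin alpha restrains apoptosome formation, had mean FPKM of 467 in Unt, 1691 in DOX and 479 in D_MgHCF, with a log2 fold change of 1.85 in DOX against Unt that was -0.11 at the lowest of the 5 scalings. Anp32a, a promoter of caspase activation in extracts, went from 47.3 FPKM in Unt to 165 in DOX (log2 fold change 1.77, which was 0.42 at the lowest of the 5 scalings and called under 4 of them). Hspa8, the constitutive HSC70 chaperone, was at 659 FPKM in DOX and 68.2 in D_MgHCF (log2 fold change -3.24) and was called lower in that comparison under all 5 scalings.

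Of 5 adaptors of caspase 2 and caspase 8, 3 fell with DOX against Unt (19.9% of all genes), and 3 rose with D_MgHCF against DOX (31.4%). With TPM scaling all 5 fell and all 5 rose, where the calls over all genes had turned as well. Fadd, the adaptor of caspase 8 at death receptors, had a mean of 4.47 FPKM in Unt and 0.797 in DOX (log2 fold change -1.60). Of 7 inhibitors of caspases, 1 was higher and 3 lower in DOX than in Unt (18.6% and 19.9% of all genes), and D_MgHCF against DOX had 4 rises and 2 falls (31.4% and 20.1%). These were 0 and 6, then 6 and 0, with TPM scaling, again beside the turned calls over all genes. Birc2, which encodes cIAP1, had 2.36 FPKM in DOX and 10.8 in D_MgHCF (log2 fold change 1.84, called under all 5 scalings).

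Of 5 genes tied to caspase 12 at the endoplasmic reticulum, DOX against Unt had 3 rises and 2 falls, and D_MgHCF against DOX had 2 rises and 3 falls (1 and 3, then 3 and 1, with TPM scaling). Capn2, the large subunit of m-calpain, fell from 65.5 FPKM in DOX to 13.0 in D_MgHCF (log2 fold change -2.26). Traf2, an adaptor of the stress sensor IRE1, had 10.4 FPKM in Unt and 1.74 in DOX (log2 fold change -2.08), and both were called under all 5 scalings in these comparisons. Of 10 caspase substrates, 4 were higher and 2 lower in DOX than in Unt (18.6% and 19.9% of all genes), and D_MgHCF against DOX had 3 rises and 6 falls (31.4% and 20.1%). These were 2 and 6, then 6 and 1, with TPM scaling. Bid, cleaved by caspase 8 to link both pathways, had 14.0 FPKM in Unt, 3.35 in DOX and 17.9 in D_MgHCF (log2 fold changes of -1.81 and 2.14, each called under all 5 scalings). Gsn, encoding the actin-severing gelsolin, was at 125 FPKM in Unt and 567 in DOX (log2 fold change 2.17). Dffb, the nuclease of apoptotic DNA fragmentation, was at 3.37, 1.17 and 1.05 FPKM in DOX and 3.20, 7.34 and 18.6 FPKM in D_MgHCF, so the groups overlapped. Its log2 fold change was 1.71, and 1.14 without D_MgHCF replicate 3 (limma adjusted p = 0.0227). Of 3 other proteins released from mitochondria, 2 rose with DOX against Unt, and 2 fell with D_MgHCF against DOX (0 rises and 1 fall, then 1 and 1, with TPM scaling). Of 4 other caspases, 1 rose with DOX against Unt, and 1 fell with D_MgHCF against DOX (0 rises and 2 falls, then 3 rises and 0 falls, with TPM scaling).

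The genes whose pattern over the 12 libraries was most like each member were ranked by Pearson's r of log2(FPKM + 1) among 10996 candidates, which is a description of libraries that share their scaling. They were Emc3 and Ykt6 for Cycs (both 0.998), Dclk1 (0.996) and Morf4l1 (0.995) for Casp12, Sipa1l2 and Taok3 for Apaf1 (both 0.995) and Traf6 and Zfp113 for Casp2 (both 0.990). Lower values were found for Pdrg1 and Psme2 with Casp6 (both 0.976), Sec31b (0.961) and Ltb4r1 (0.951) with Diablo, Zfp646 (0.953) and Rfxank (0.952) with Casp9, and Rcbtb2 (0.888) and Chst2 (0.866) with Casp8. The members with small differences between groups had the lower values.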

How the data were processed

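Polyadenylated mRNA of H9c2 cells was sequenced as 12 NEBNext libraries, 3 per group, with paired-end reads of 150 bp. The submitters' processing notes name HISAT2 2.0.5 and GRCm38, while the counting program and the annotation release are not given in the sources used here. The authors deposited FPKM and gene lengths per gene, and no sample column was unused (0 columns). FPKM times gene length gave whole reads for 100% of values (tolerance 0.01), and the implied scale equalled the median-ratio factor of those reads. The counting error at the lowest read number of a member was 2.35% (Cycs) to 12.0% (Diablo).

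FPKM were tested with limma 3.58.1 (trend) in R 4.3.3 on log2(FPKM + 1), in 1 fit over 12 libraries without covariates, over 25044 genes (FPKM not 0 in 3 libraries or more). The script was tested on simulated data. Exact permutation tests used SciPy 1.17.1. Near-identical copies of the members came from a BLAST 2.17.0 search of the GENCODE M21 transcripts, with 95% identity and 150 aligned bases as minimum. Upstream sequences came from RefSeq, with all 8 genes matched. The members, the gene lists and the tests were chosen with earlier results of these data known. Beyond the members, the genes named were the 3 largest rises and falls of the pathway list in DOX against Unt and in D_MgHCF against DOX, and the 2 closest patterns of each member. Septin4, for which no row of that name was used, and Casp14 were not tested. Alternatives were a pseudocount of 0.1, other filters, the replicate number as a block, 2 groups only, 4 other scalings (FPKM over summed reads was chosen after seeing the data) and each library left out.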

Additional observations from a re-analysis of the deposited data

How the results depend on the processing

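Of 480 single-gene results under other settings, 416 kept their direction and side of the threshold, 21 lost the call, 22 gained one and 21 changed sign. With each library left out, 538 of 576 kept both. Leaving out a library outside the 2 groups compared cannot move the log2 fold change, so only the call could change there. The same holds for the other filters, the replicate block, 2 groups only and the unadjusted p. Both tallies thus include results whose direction was fixed in advance. With only the 2 groups compared, 3 members and 15 pathway genes were called for D_MgHCF against Unt, and without a filter 16 pathway genes. At an unadjusted p, 1 member and 6 pathway genes were called for D_DXZ against DOX, against 9.54% of all genes. Quantile normalization called 21 pathway genes for D_MgHCF against DOX. Leaving out 1 library gave 2 to 7 members and 15 to 26 pathway genes for D_MgHCF against Unt, the 15 without Unt replicate 2. Apart from the unadjusted p, shares of all genes are not given for these settings, so their counts cannot be set against a background. Without a pseudocount the log2 ratio of Cycs to Apaf1 was 3.64 for DOX against Unt and -3.70 for D_MgHCF against DOX. The causes were not tested.

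Signs turned as follows. With TPM scaling, Casp6 was -0.18, Casp8 -0.98 and Diablo -0.63 for DOX against Unt, Casp6 -0.23 for D_DXZ against Unt, Casp8 -0.10 for D_MgHCF against Unt, Apaf1 0.0690 for D_DXZ against DOX, Casp6 0.42 and Casp8 0.88 for D_MgHCF against DOX, and Casp6 0.46 for D_MgHCF against D_DXZ. With FPKM over summed reads, Casp8 was -0.59 and Diablo -0.38 for DOX against Unt, Apaf1 0.0785 for D_DXZ against DOX, Casp6 0.22 and Casp8 0.64 for D_MgHCF against DOX, and Casp6 0.26 for D_MgHCF against D_DXZ. With quantile normalization, Casp9 was 0.28 for DOX against Unt and 0.28 for D_DXZ against Unt, Diablo 0.0843 for D_DXZ against Unt and -0.0315 for D_MgHCF against DOX, and Casp2 -0.0699 for D_MgHCF against D_DXZ. With voom, Casp8 was -0.0718 for D_MgHCF against Unt. With 1 library left out, Casp8 ranged from -0.0382 to 0.0270 for D_DXZ against Unt, -0.0896 to 0.241 for D_MgHCF against Unt and -0.0785 to 0.252 for D_MgHCF against D_DXZ, Diablo from -0.137 to 0.00706 for D_DXZ against Unt and Apaf1 from -0.13 to 0.18 for D_DXZ against DOX.

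Same-numbered libraries of different groups had deviations correlated between -0.314 and 0.306, and other-numbered ones between -0.309 and 0.258. The deviations were taken from means of 3 libraries, so these ranges cannot decide whether replicate numbers pair the libraries. With the replicate block, 5 members were called for DOX against Unt and 5 for D_MgHCF against DOX, where Casp2 (0.50, limma adjusted p = 0.0568) was lost, and no other member's call changed. The shares of all genes called with the block are not given here, so these counts cannot be set against a background. Counts of 69 to 334 reads limit Diablo most.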
